A study of Danio rerio with 5 samples.

Results

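Cytosolic ribosomal protein genes are those that encode the proteins of the 80S ribosome outside the mitochondria. They were chosen by symbol: a gene was a member when its symbol in the deposited tables was rpl or rps followed by a number, with or without an a, x, y or l suffix or a copy number, or was rpsa, rplp0, rplp1, rplp2 or rplp2l. The rule used no measured value. It found 80 of 32520 genes, of which 41 encode proteins of the large subunit, 35 of the small subunit and 4 of the stalk of the large subunit. The S6 kinase genes, which share the rps prefix, are not members. Copies and related genes with other endings (such as rpl5b, rpl7l1 and rpl22l1) also fall outside the rule, and the TPM values of these 3 are given beside those of their relatives. The gene rpl7l1 is treated as a related gene and not as a copy of rpl7. Of the 80 symbols, 73 matched the reference gene name for the same identifier and 7 carried another one. For 6 of the 7 the other name was again that of a ribosomal protein gene, but rpl37 with identifier ENSDARG00000076360 was named COA1. The symbol rpl37 belongs to a pair of members, told apart by identifier as rpl37 (ENSDARG00000034291) and rpl37 (ENSDARG00000076360).

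Whole Danio rerio embryos were sequenced for RNA at 4 hours post fertilisation (hpf), in 5 libraries that are all labelled RfxCas13d. RfxCas13d is a CRISPR nuclease that cuts RNA when a guide RNA (gRNA) directs it there. The 3 control libraries are described only as RfxCas13d controls. The other 2 are knockdowns. A single library holds a pool of 10 gRNAs, which are gSZRD1 and 9 more, and another holds 25 gRNAs, which are gSZRD1 and 24 more. The study asked how many gRNAs can be put into embryos together. The labels do not state what the guides other than gSZRD1 target, nor the strain or number of the embryos. Per the labels' protocols, Nextera XT libraries of controls 1 and 2 used 1/4 of the usual reaction volume, and those of control 3 and both pools used 1/8. The volume therefore splits the controls and is shared by control 3 and the pools. Separate clutches or injections are not recorded for the controls, so that p-values reflect only a spread between libraries that may be technical.

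A ribosome is built from ribosomal RNAs and one copy of most ribosomal proteins, with the stalk proteins P1 and P2 present in several copies. The small subunit reads the mRNA, the large subunit joins amino acids, and the stalk recruits the translation factors that hydrolyse GTP. The egg of a fish is laid with a large store of ribosomes, and the zebrafish embryo uses maternal ribosomal RNA before its own takes over. In vertebrates, ribosomal protein mRNAs are typical TOP mRNAs: they are short and abundant, start with a run of pyrimidines, and their translation is controlled through mTOR and Larp1. Loss of 1 copy of many of these genes causes Diamond-Blackfan anaemia in people and tumours of the peripheral nerve sheath in zebrafish.

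Gene counts ranged from 5283761 (control 3) to 14179837 (control 2) per library. Entries that name no gene held between 26.7% and 33.9% of the reads in 4 libraries and 53.8% in control 3, where unmapped reads alone were 44.0%. The guide target szrd1 was at 221, 278 and 311 CPM (gene counts scaled to a common library total, with TMM factors) in the controls, and at 41.3 and 45.6 CPM with 10 and 25 guides, so that both pools lay far below every control (-2.63 on the log2 scale, edgeR adjusted p = 0.232). Markers of the embryo were present. The summed level of 6 maternal genes (such as nanog and pou5f3) was 3418 and 3397 CPM in controls 1 and 2 and between 4105 and 4343 CPM in the 3 libraries of 1/8 volume. The summed level of 6 enveloping layer genes was 523 CPM in control 1 and between 1073 and 2249 CPM in the other libraries. Genes of late or adult cells, with those of blood, muscle, neuron and pancreas among them, together stayed at or below 40.8 CPM in every library. The largest part in control 1 was pmp22b, at 33.0 CPM, and mylpfa was at 0 throughout.

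All 80 members had counts in every library. Together they made up 0.905% of the gene counts in control 1 (95% Wilson interval 0.900 to 0.910) and 0.912% in control 2 (0.907 to 0.917). The share was 0.440% in control 3 (0.435 to 0.446), 0.457% in the pool of 10 (0.452 to 0.462) and 0.421% in the pool of 25 (0.417 to 0.426). These intervals cover counting error only. The 3 libraries of 1/8 volume, control 3 among them, thus lay together and below the other 2. In TPM (a level scaled for transcript length and to a fixed total) the members' share of the total was 2.21%, 2.22%, 1.36%, 1.37% and 1.24% in the same order. In bulk samples like these, fewer cells of a type and less RNA per cell cannot be told apart.

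Levels per length spread 107-fold from the highest to the lowest member. The highest was rps20, a protein of the head of the small subunit, at 1988 ± 489 TPM in the controls (mean ± SD, n = 3). It ranked 30 among all genes and held 10.3% of the members' summed control TPM, 1.84 times the next member. Its TPM was 2385, 2137 and 1442 in controls 1 to 3 and 1280 and 1073 in the pools of 10 and 25. Both pools lay below all 3 controls for this gene, and control 3 lay below the other controls. The next member was rps28, a small protein near the site where mRNA leaves the ribosome, at 1081 ± 499 TPM. Its TPM was 1421, 1314 and 508 in the controls and 458 and 454 in the pools. For rps28 control 3 lay close to the pools and far from the other controls.

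Others of the highest members were rps12 (721 ± 239 TPM), rpl19 (632 ± 178) and rpl32 (539 ± 120). They also included rpl18 (439 ± 149 TPM) and rps27.2 (432 ± 159). The 8 highest members held 33.2% of the members' summed TPM. At the low end stood rps26l (18.7 ± 5.08 TPM), rps3 (21.1 ± 2.07), rpl35a (22.1 ± 9.24) and rpl14 (35.0 ± 9.58). Above them came rpl5a (49.6 ± 14.9 TPM), rpl37 (ENSDARG00000076360) (55.4 ± 8.75), rpsa (59.4 ± 21.7) and rpl31 (66.0 ± 14.6). Of the 80 mRNAs, 2 were among the 100 highest genes, 44 among the 1000 highest and 64 among the 2000 highest. The TPM of rps3 and rpl35a was low for their read counts: their CPM was 56.8 ± 19.5 and 61.6 ± 34.6, and rps20 had 476 ± 222. The median CPM of the tested members was 96.9, 110 and 40.2 in controls 1 to 3. The low TPM rank of these genes may therefore not be a low level of their mRNA, which was not tested.

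The order of levels was loose. In 77 of 79 pairs of neighbours in the order, the means differed by less than the larger of the pair's SDs over the controls. The median coefficient of variation over the controls was 27.3%. In TPM, control 3 lay below both other controls for 66 members and above both for 6. The share of all genes in either order was not counted on the TPM scale, so these counts have no background beside them. The subunits did not stand apart: the median control TPM was 190 for the large subunit, 189 for the small subunit and 142 for the 4 stalk genes. The gene rpl26 had between 1 and 3 counts per library but was listed between 115 and 207 TPM, so the deposited tables disagree on this gene, and it was too low in counts to be tested.

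**Figure D1:**
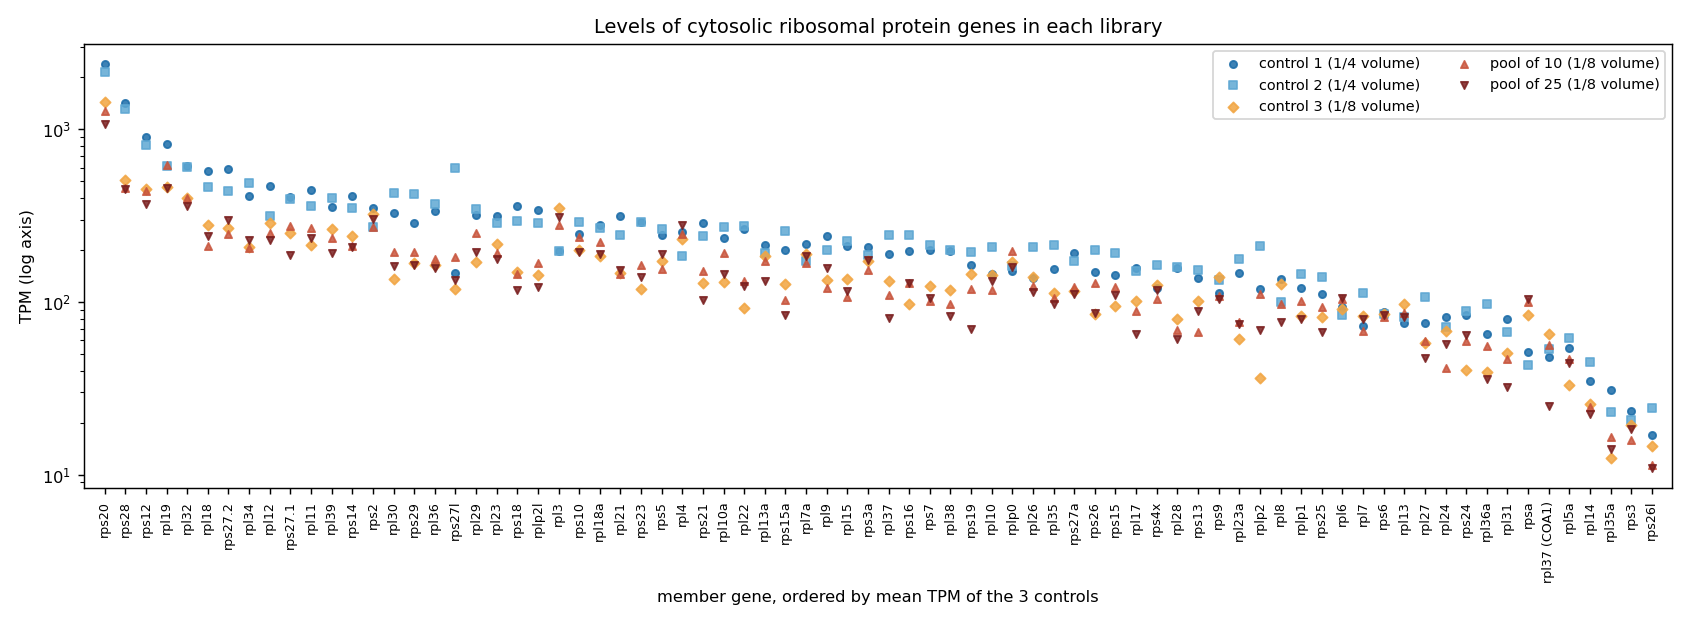
TPM (log axis) of 76 of the 80 cytosolic ribosomal protein genes in each of the 5 libraries, ordered from left to right by the mean of the 3 controls. Each point is 1 library, and the label rpl37 (COA1) marks ENSDARG00000076360; rps20 stands alone at the top, and for most genes the circles and squares of the 1/4 volume controls lie above the diamonds of control 3 and the triangles of the pools.

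Within the controls, ribosomal protein genes were lower in the library of 1/8 volume. Set against controls 1 and 2, control 3 had a fitted fold change below 0 for 79 of the 79 members tested (53.6% of all genes), with a median log2 fold change of -1.49 (2.80-fold lower), while the median of all 16445 genes tested was -0.12. In CPM control 3 lay below both other controls for 78 of 79 members, all but rpl3, and for 42.5% of all genes. Scaled by library size alone 76 of 79 were below 0 and on TPM 69 of 79, the exceptions including rpl3 and rpsa. By edgeR's quasi-likelihood test 55 of 79 members were lower at an adjusted p under 0.05 and 0 were higher, where 8.93% of all genes were lower and 8.84% higher (17.8% in either direction). The spread behind these calls has 2 degrees of freedom, from control 1 against control 2 and from the pool of 10 against the pool of 25, which were treated as replicates although they hold different guides. In a fit chosen after seeing the data, with each pool a group of its own, so that controls 1 and 2 alone gave the spread, 41 of 79 members were lower and 0 higher, against 5.08% of all genes lower. Before adjustment, 74 members had p under 0.05 in the lower direction and 0 in the other, against 16.9% and 15.6% of all genes. DESeq2 called 59 of 79 members, and of all genes with an adjusted p it called 11.8% lower and 22.2% in either direction. By subunit the calls were 26 of 40 for the large subunit (median -1.48), 26 of 35 for the small subunit (median -1.47) and 3 of 4 for the stalk (median -1.73). On TPM with limma the direction held but the calls were fewer: 13 of 79 members were lower (median -0.66), against 2.75% of all genes lower, 17.2% in either direction and an all-gene median of 0.50. Control 3 is a single library, so its volume, its depth and its high unmapped share cannot be told apart.

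The pools, made at the same volume as control 3, sat at its level. The median CPM of the tested members was 96.9 in control 1, 110 in control 2, 40.2 in control 3 and 40.5 and 34.5 in the pools of 10 and 25. Across members, the median log2 difference from control 3 was 0.06 for the pool of 10 (45 of 79 above control 3) and -0.06 for the pool of 25 (31 of 79 above). Control 2 minus control 1 gave 0.15, while control 3 minus control 1 gave -1.36 and minus control 2 gave -1.49. For 77 of 79 members (97.5%) all 3 libraries of 1/8 volume lay below both of 1/4 volume in CPM, against 27.7% of all genes. None of the 79 showed the opposite order, which 25.1% of all genes did. On TPM the number was 64 of 79 (81%), against 11.8% of all genes. The summed maternal markers had the opposite order, but of the 6 genes pou5f3 alone showed it on its own, zar1 and dazl had the order of the members, and for the other 3 the volumes overlapped. Their part in these differences was not tested.

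**Figure D2:**
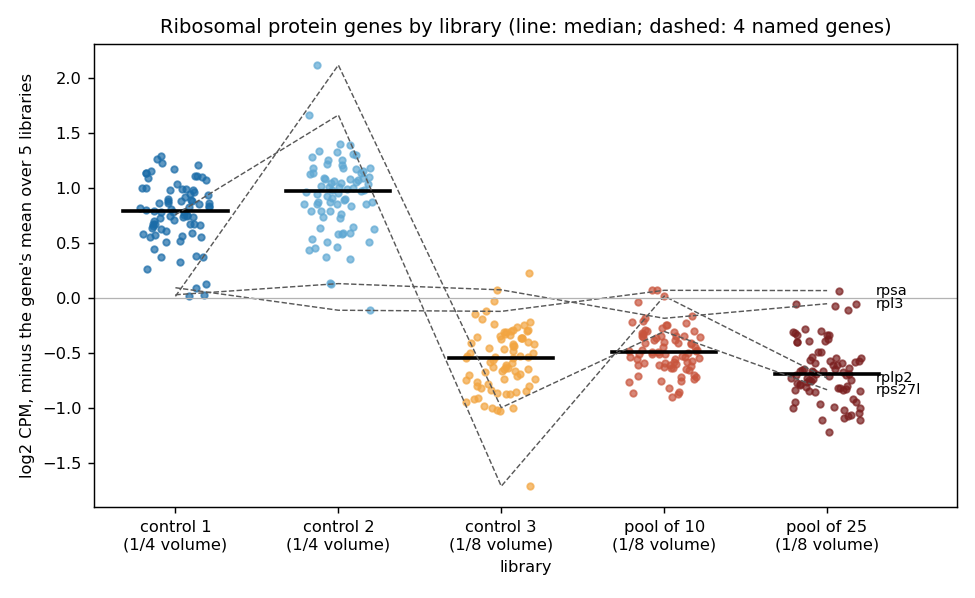
Log2 CPM of the 79 tested ribosomal protein genes in each library, each gene centred on its own mean over the 5 libraries; each point is 1 gene and the bar is the median, which was 0.79, 0.97, -0.54, -0.49 and -0.69 from left to right. The dashed lines follow rpsa and rpl3, which stayed near 0 in every library, and rplp2 and rps27l, which were highest in control 2.

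The exceptions were 2 core proteins. The gene rpl3, whose protein lies near the peptidyl transferase centre of the large subunit, had 212, 228 and 219 CPM in the controls and 183 and 201 in the pools. Its fold change for control 3 was -0.01 (SE 0.26, adjusted p = 0.990). The gene rpsa, a small subunit protein also known as the laminin receptor precursor, had 102, 88.2 and 87.6 CPM in the controls and 100 and 99.9 in the pools. Its fold change for control 3 was -0.12 (SE 0.28, adjusted p = 0.806). For both genes the 2 volumes overlapped in CPM, while for rpl3 both pools lay below all 3 controls. On the TPM scale rpsa was listed at 51.0, 43.1 and 84.0 in the controls and 100 and 104 in the pools, so on that scale the 3 libraries of 1/8 volume were the higher ones (0.83 for control 3, where the all-gene median was 0.50). The same held for rpl3, at 196, 198 and 351 TPM in the controls and 280 and 311 in the pools.

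At the other end stood rplp2, one of the acidic stalk proteins that recruit elongation factors. It had 39.6, 74.5 and 6.75 CPM in the controls and 23.5 and 13.8 in the pools. Its fold change for control 3 was -3.08 (SE 0.58, 95% interval -4.36 to -1.79, adjusted p = 0.009). The value rests on 39 counts in control 3, and controls 1 and 2 themselves differed by more than control 1 and the pool of 10. Its relative rplp2l had 119, 107 and 29.6 CPM in the controls and 34.4 and 25.2 in the pools, a fold change of -1.93 (SE 0.36, adjusted p = 0.009). The other stalk genes were rplp1 at -1.53 (SE 0.36, adjusted p = 0.019) and rplp0, which anchors the stalk, at -0.67 (SE 0.30, adjusted p = 0.154). Other low members were rps27l (-2.42), rpl22 (-2.19) and rpl30 (-2.17), each past the threshold in edgeR. In DESeq2 rps27l did not pass, and without control 2 its fold change was -1.02.

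Among the abundant small subunit genes, rps28 had 354, 359 and 84.5 CPM in the controls and 90.1 and 71.0 in the pools, with a fold change of -2.08 for control 3 (SE 0.31, adjusted p = 0.005). For rps20 the CPM was 608, 600 and 220 in the controls and 204 and 158 in the pools, with a fold change of -1.46 (SE 0.29, adjusted p = 0.011). In both genes the controls of 1/4 volume were close to each other and the other 3 libraries lay far below them. The weakest differences, after rpl3 and rpsa, belonged to rpl37 (ENSDARG00000076360), at -0.24 (SE 0.50, adjusted p = 0.780), a gene whose identity is in doubt.

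Against all 3 controls, the pools showed no ribosomal protein gene past the threshold. With both pools together, 0 of 79 members passed in edgeR (smallest adjusted p = 0.464) and 0 in DESeq2, where 0% of all genes in edgeR and 0.633% in DESeq2 passed. At an unadjusted p under 0.05 there were 38 members, all lower, against 6.66% of all genes lower and 3.97% higher at that level. The median log2 fold change of the members was -1.12, with 78 of 79 below 0 (77 by library size alone, 74 on TPM), and that of all genes was -0.08, with 53.4% below 0. Both pools lay below all 3 controls in CPM for 27 of 79 members (34.2%), against 14.9% of all genes, and above them for none, against 14.6% of all genes. On TPM the number was 33 of 79 (41.8%), against 7.48% of all genes.

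This comparison depended on which controls entered it. A term for the library volume leaves control 3 as the reference for the pools. With it the members' median was -0.04, with 41 of 79 below 0 and 0 past the threshold. Of all 16445 genes tested in that fit 7881 were below 0, 3 were lower and 7 higher past the threshold, and the median was 0.02. Without control 3, so that pools of 1/8 volume were set against controls of 1/4 volume only, 71 of 79 members were lower past the threshold, against 12.8% of all genes lower and 24.7% in either direction, with a median of -1.52. Without control 1 the median was -0.99 and without control 2 it was -0.88, with 0 past the threshold in both. The volume and the pools cannot be told apart in the fit without control 3.

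The members lowest in the pools were rps28, at -1.72 (SE 0.59, 95% interval -3.05 to -0.40), and rps15a, a small subunit protein, at -1.69 (SE 0.55, -2.91 to -0.47). They were followed by rps18 (-1.61), rpl37 (ENSDARG00000034291) (-1.61) and rpl18 (-1.57). The CPM of rps15a was 80.6, 107 and 31.2 in the controls and 25.9 and 19.4 in the pools. That of rpl18 was 304, 269 and 95.4 in the controls and 74.1 and 76.5 in the pools. In both genes the pools were below every control, but the step from control 3 to the pools was small beside the step between the controls. The highest were rpsa at 0.11 (SE 0.35, -0.67 to 0.90), rpl3 at -0.20 (SE 0.34, -0.95 to 0.56) and rpl4, whose protein lines the exit tunnel for the new peptide, at -0.28 (SE 0.38, -1.13 to 0.58).

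**Figure D3:**
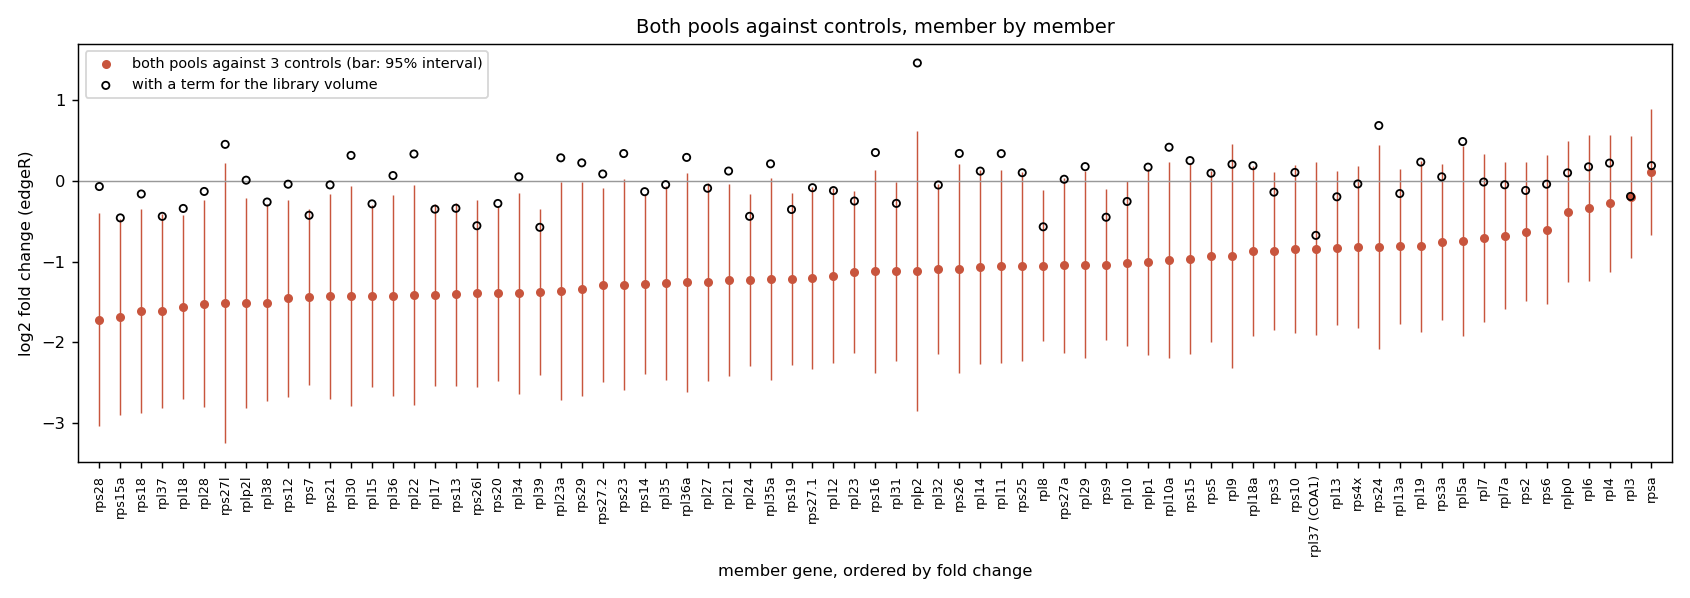
Log2 fold change in CPM of both pools against the 3 controls for 75 of the 79 tested members, ordered by size; filled points are the fit with 2 groups and bars its 95% intervals, and open circles add a term for the library volume. The filled points run from -1.72 (rps28) to 0.11 (rpsa) and the open circles lie on both sides of 0; the medians of all 79 tested members are -1.12 and -0.04.

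Each pool alone gave a similar range. For the pool of 10 the members' median was -1.05 (all genes -0.11), with 78 of 79 below 0, and 0 members passed in edgeR (0% of all genes), with 0 in DESeq2 (0.0835% of all genes). At an unadjusted p under 0.05 there were also 0 members, against 1.8% of all genes lower and 1.42% higher. The lowest were rpl18 (-1.59, SE 0.80), rps28 (-1.56, SE 0.87), rps13 (-1.52), rps15a (-1.49) and rpl15 (-1.48), and the highest were rpsa (0.11), rplp0 (-0.21) and rpl3 (-0.26). For the pool of 25 the median was -1.30 (all genes -0.12), with 78 of 79 below 0, and 0 members passed in edgeR (0% of all genes) and 0 in DESeq2 (0.0581%). At an unadjusted p under 0.05 there were 3 members, rps15a (-1.91, SE 0.85) and the 2 rpl37 genes (-1.87 and -1.65), against 1.84% of all genes lower and 1.22% higher. The next lowest were rps28 (-1.90), rpl28 (-1.83) and rps21 (-1.81), and the highest were rpsa (0.11), rpl3 (-0.13) and rpl4 (-0.21). With the volume term the medians were 0.07 and -0.06 for the pools of 10 and 25. The 2 pools share their controls, and each is a single library that is assumed to vary like them.

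Between the pools, which share the volume, no member differed past the threshold. The median log2 fold change of the pool of 25 over the pool of 10 was -0.22, with 54 of 79 below 0, where the all-gene median was 0.00. In edgeR 0 of 79 passed (0% of all genes), 0 reached an unadjusted p under 0.05 (0.334% of all genes lower and 0.456% higher), and DESeq2 called 0. The lowest was rpl37 (ENSDARG00000076360) at -1.33 (SE 0.79, 95% interval -3.08 to 0.42), with 28.2 and 11.2 CPM in the pools of 10 and 25, where the controls had between 31.5 and 39.2. It was the member in which the pool of 25 stood most alone. Then came rpl31 (-0.87), rplp2 (-0.76), rps21 (-0.68) and rpl36a (-0.64). Among the highest were rpl9 at 0.90 (SE 1.06), with 4.46 and 8.35 CPM in the pools of 10 and 25, a gene with very few counts for its TPM, and rpl24 (0.40). The intervals are wide (-2.22 to 1.48 for rps20), so differences of that size between the pools were not detectable.

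Zebrafish carries copies of some ribosomal protein genes, and ratios within a library do not depend on its scaling. For most pairs of copies or related genes the same gene was higher in every library. The rpl22 pair, whose protein binds RNA on the outside of the large subunit, kept the steadiest ratio. In TPM, rpl22 was at 263, 275 and 91.9 in the controls and 132 and 124 in the pools, and rpl22l1 was at 113, 120 and 31.3 in the controls and 61.8 and 49.9 in the pools. The ratio of rpl22 to rpl22l1 was therefore between 2.13 and 2.94 in the 5 libraries, although both copies were lower in the libraries of 1/8 volume. For rpl5, a protein that binds 5S rRNA, the copy rpl5b was the higher one in every library: rpl5a was at 54.2, 61.7 and 32.9 TPM in the controls and 46.4 and 44.5 in the pools, and rpl5b between 87.4 and 143. The log2 ratio of rpl5a to rpl5b lay between -1.58 (control 3) and -0.91 (pool of 10), so the pool of 10 fell just outside the range of the controls and the pool of 25 within it.

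The gene rps26, whose protein lies near the mRNA exit, was between 5.79 and 11.3 times higher than rps26l, at 150, 201 and 84.9 TPM in the controls and 128 and 86.4 in the pools. The gene rpl7 was at 72.1, 112 and 82.6 TPM in the controls and 67.8 and 79.9 in the pools. The related gene rpl7l1, not taken as a second copy of rpl7, was at 522, 312 and 405 TPM in the controls and 413 and 424 in the pools. In every library rpl7 was the lower one, at log2 ratios from -2.86 (control 1) to -1.48 (control 2), so the widest gap was between controls of the same volume. The copies rps27.1 and rps27.2 were close, with log2 ratios from -0.69 (pool of 25) to 0.15 (pool of 10), and neither was the higher one in all libraries. The stalk pair moved more: rplp2 over rplp2l ran from -1.97 (control 3) to -0.44 (control 2). Reads that map to several places were listed apart from the gene counts, at between 2.99% and 6.07% of reads, so the split between near-identical copies is uncertain.

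**Figure D4:**
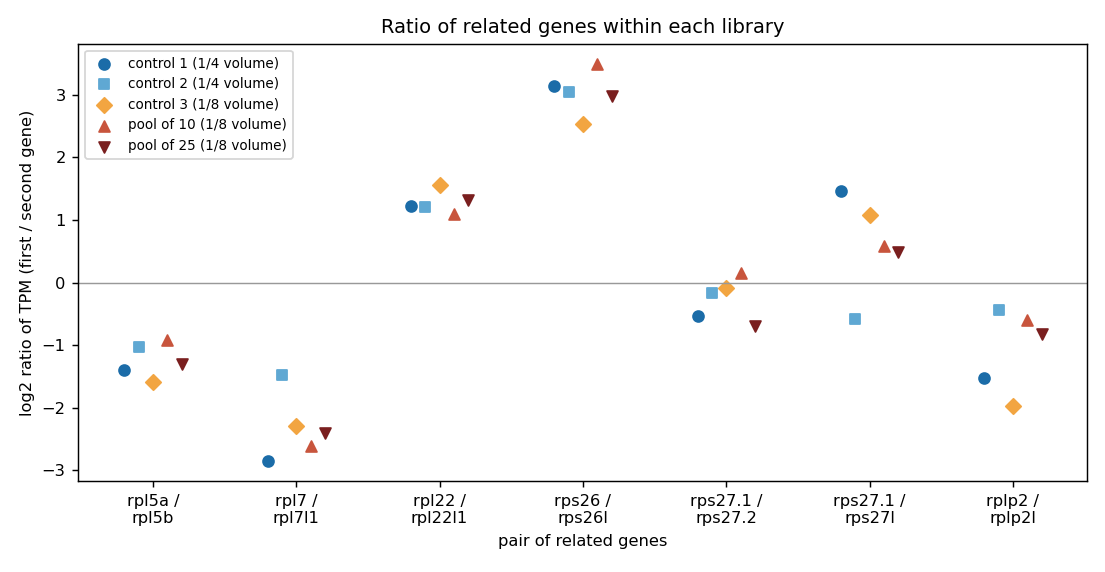
Log2 ratio of the TPM of related genes within each of the 5 libraries; each point is 1 library and its shape and colour give the library. The ratio of rpl22 to rpl22l1 spans 1.09 to 1.55, while that of rps27.1 to rps27l spans -0.59 (control 2) to 1.46 (control 1).

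The control libraries also differed in 1 member on its own, which was singled out after its values were seen. In humans RPS27L is a target of p53, the damage-response transcription factor, and is induced with the other p53 targets. The zebrafish gene rps27l had 108 CPM in control 1 and 463 in control 2, 53.1 in control 3, and 86.2 and 59.5 in the pools of 10 and 25. Control 2 stood far above all other libraries, including the other control of its own volume. Its rank by TPM among the 80 members was 52 in control 1, 7 in control 2, 48 in control 3, and 27 and 34 in the pools. It was the only one of 79 members that was at least 2-fold higher in control 2 than in control 1, which 11.1% of all genes were. In a list of p53 targets, written after this value was seen, 13 of 15 tested genes were above control 1 in control 2, against 48.5% of all genes, with a median log2 difference of 0.34, where the all-gene median was -0.01. The highest of the list differed little: ccng1, a cyclin family gene, had 2890 CPM in control 1 and 2986 in control 2, and btg2, an antiproliferative gene, had 374 and 455. Wider differences, picked after their values were seen, were those of phlda3, with 91.1 and 350 CPM, and mdm2, the ligase that degrades p53, with 121 and 211. The gene rrm2b, a ribonucleotide reductase subunit, went the other way, with 65.5 and 46.0 CPM. The other libraries had between 93.6 and 116 CPM of phlda3 and between 106 and 120 of mdm2. With 1 library on each side there is no test of this difference. Other embryo genes also differed between controls 1 and 2. The summed CPM was 523 and 2249 for 6 enveloping layer genes and 494 and 1059 for 7 zygotic genes. It was 387 and 601 for 4 yolk syncytial layer genes, while 6 maternal genes had 3418 and 3397. The part of these genes in the difference of the p53 list was not tested.

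The rps27l value bears on the volume comparison of that gene. Its fold change for control 3 was -2.42 (SE 0.73, adjusted p = 0.046, and 0.075 with each pool a group of its own), the largest SE of the 79 members, and the TPM ratio of rps27.1 to rps27l was below 1 in control 2 only (0.665, against 1.40 to 2.76 in the other libraries).

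Ribosomal protein mRNAs are short, and genes with few counts per TPM were lower in the libraries of 1/8 volume. The tables hold no transcript length, so gene counts per unit of TPM, relative to the median gene, stood in for it. The members' median on this measure was 0.29, from 0.045 (rpl9) to 1.63 (rpl35a). Of the 79 tested members, 63 fell in the lowest of 10 bins of equal size and 75 in the lowest 3. In that lowest bin the median fold change of control 3 was -0.99 for the 1389 other genes and -1.51 for the 63 members. In the next bin it was -0.97 for 1442 other genes and -1.06 for 9 members, and in the highest bin it was 0.85 for 1452 other genes. For both pools against the controls the lowest bin gave -0.81 for other genes and -1.21 for members, and the next bin -0.72 and -0.82. With the volume term these values in the lowest bin became 0.00 and -0.04.

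Within the members the same gradient was visible. Spearman's rho across genes between the measure and the fold change of control 3 was 0.50 over 79 members and 0.50 over 14436 other genes, which share the same libraries and are not independent. The 40 members with the fewest counts per TPM had a median of -1.60 with 35 called lower, and the other 39 had -1.13 with 20 called lower, against 8.93% of all genes. The share called lower among other genes of like counts per TPM was not counted. The exceptions rpl3 and rpsa have 0.58 and 0.92 on this measure, well above the median member. In the bin of rpl3 the median of other genes was -0.71 in control 3, so rpl3, at -0.01, lay well above it. In the bin of rpsa that median was -0.16, near the -0.12 of rpsa. The gene rpl4, among the highest members in both pools but not an exception in control 3, has 0.63. The genes rps3 and rpl35a, at 1.62 and 1.63, had fold changes of -0.99 and -1.83, far below the 0.64 of other genes in their bin. Their values on the measure are far above the members' median of 0.29. Whether they reflect transcript length or a disagreement of the deposited tables was not tested, so the comparison with that bin is uncertain. The measure also falls when reads are shared between genes, and what it owes to length was not tested.

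**Figure D5:**
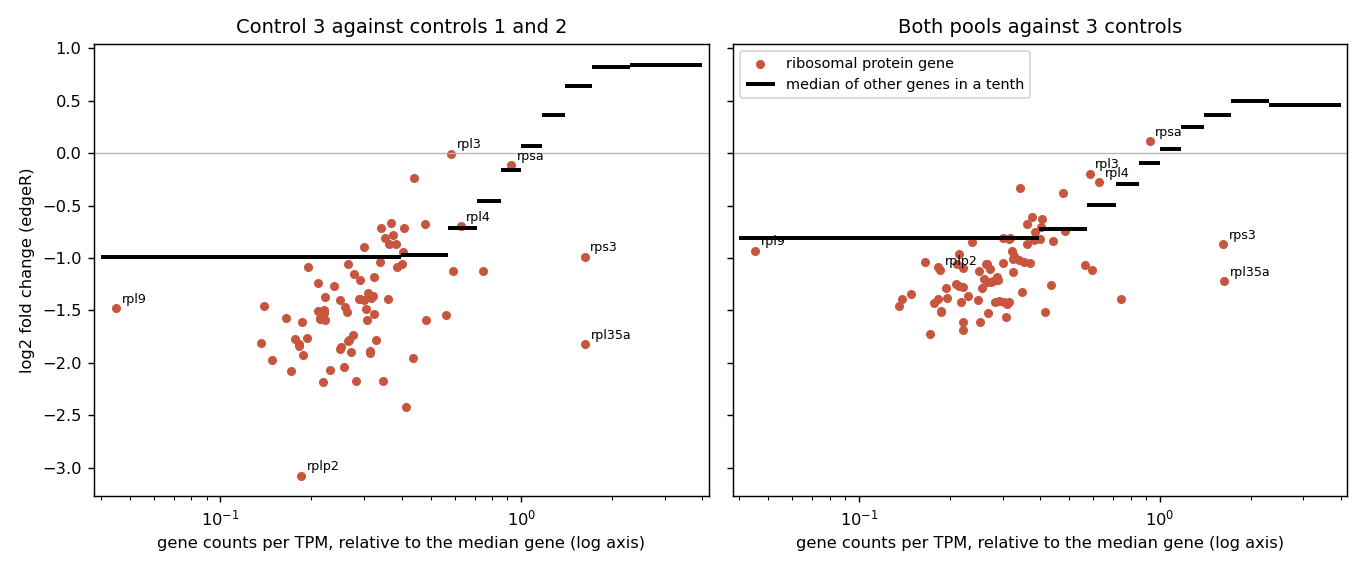
Log2 fold change against gene counts per TPM relative to the median gene (log axis), for control 3 against controls 1 and 2 (left) and both pools against the 3 controls (right); each point is 1 ribosomal protein gene and each bar the median of the other genes in 1 of 10 equal bins, drawn no further than 4. The bars climb from -0.99 to 0.85 on the left and from -0.81 to 0.46 on the right, and most points lie below the bar of their bin.

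Genes whose human counterparts are mutated in Diamond-Blackfan anaemia had values in the range of the other members. Of 22 such genes in the tables, 21 could be tested, among them rps7, rps10, rps15a, rps19, rps24, rps26, rps28 and rps29 of the small subunit and rpl5a, rpl5b, rpl11, rpl15, rpl18, rpl27, rpl31, rpl35 and rpl35a of the large subunit. In control 3, 18 of the 21 were lower past the threshold (median -1.59), against 8.93% of all genes and 55 of all 79 members. For both pools 0 passed in edgeR, 13 were lower at an unadjusted p under 0.05 (6.66% of all genes and 38 of 79 members), and the median was -1.25 (range -1.72 to -0.75). The most often mutated of them in people, rps19, had 64.9, 79.9 and 32.5 CPM in the controls and 28.6 and 22.3 in the pools. Its fold change was -1.15 for control 3 (SE 0.36, adjusted p = 0.053) and -1.22 for both pools (SE 0.48). The genes rpl5a and rpl11, whose proteins in mammals bind Mdm2 together with 5S rRNA when ribosome assembly fails, were at -1.60 (adjusted p = 0.021, and 0.054 with each pool a group of its own) and -1.79 (adjusted p = 0.008) in control 3, and at -0.75 and -1.06 in both pools. For rps19 the levels in the pools lay nearer to control 3 than to the other controls. For rpl5a they lay between, at 46.4 and 44.5 TPM, against 32.9 in control 3 and 54.2 and 61.7 in controls 1 and 2.

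Other TOP mRNAs, and ribosomal protein and related genes outside the rule, mostly had fold changes below 0 in control 3 as well. The shares of all genes to set beside the counts are 8.93% called lower and 8.84% called higher in control 3, and 53.4% below 0 in both pools. These shares are over all genes, not over genes of like counts per TPM. Of 16 other TOP mRNAs tested, 7 were lower and 0 higher in control 3 (median -1.11), and 16 were below 0 in both pools (median -0.82). Among them tpt1, the translationally controlled tumour protein and a classic TOP mRNA, had 1106, 752 and 365 CPM in the controls and 443 and 470 in the pools, and cirbpb, a cold-inducible RNA-binding protein, had 437, 514 and 347 in the controls and 278 and 292 in the pools. Of 7 ribosomal protein and related genes outside the symbol rule that were tested, 4 were lower in control 3 (median -1.43). The highest of these in CPM, rpl7l1, had 449, 295 and 211 CPM in the controls and 224 and 219 in the pools, and it did not pass the threshold (-0.82, adjusted p = 0.103). The next was faub, which encodes a ubiquitin-like protein fused to a small subunit protein, with 378, 447 and 98.7 CPM in the controls and 102 and 108 in the pools (-2.06, adjusted p = 0.005). All 3 libraries of 1/8 volume lay far below the other 2 for this gene. Mitochondrial ribosomal protein genes, whose proteins sit in a separate ribosome, included many lower genes: 36 of 76 were called lower and 0 higher in control 3 (median -1.25), and 75 of 76 were below 0 in both pools (median -0.85). Those of highest mean CPM over the 5 libraries were mrpl3, with 292, 187 and 127 CPM in the controls and 147 and 124 in the pools, and mrpl44, with 262, 236 and 116 in the controls and 125 and 113 in the pools. Of the 13 mRNAs of the mitochondrial genome 7 were lower and 0 higher in control 3 (median -1.13). Of these, mt-co2 had 2973, 4228 and 586 CPM in the controls and 1191 and 1225 in the pools, while mt-co1 had 2028, 2097 and 1278 in the controls and 2299 and 2635 in the pools. Both encode subunits of cytochrome c oxidase, and they differed in order, since only mt-co1 was highest in the pools.

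Among genes for factors that act on the ribosome, some were called lower and some higher in control 3, and the same all-gene shares, 8.93% lower and 8.84% higher, stand beside these counts. Here too the shares do not take the counts per TPM of the listed genes into account. Of 12 elongation factor genes, 2 were lower and 1 higher in control 3, with a median of 0.28. The most abundant, eef1a1l1, which brings aminoacyl-tRNA to the ribosome, had 568, 734 and 898 CPM in the controls and 643 and 649 in the pools, and eif5a2, which helps the ribosome over difficult peptide bonds, had 345, 268 and 366 in the controls and 326 and 296 in the pools. Of 37 initiation factor genes, 10 were lower and 3 higher (median -0.68). Here eif4a1a, an RNA helicase, had 755, 640 and 934 CPM in the controls and 729 and 819 in the pools, while eif1b, which helps to select the start codon, had 1260, 568 and 325 in the controls and 551 and 323 in the pools. Of 50 ribosome biogenesis genes, 6 were lower and 4 higher (12% and 8%, near the shares of all genes; median -0.17). In this list npm1a, the nucleolar protein nucleophosmin, had 1240, 1056 and 1249 CPM in the controls and 1126 and 1083 in the pools, so the groups overlapped. By contrast ncl, nucleolin, had 302, 314 and 796 CPM in the controls and 684 and 502 in the pools, and was higher in control 3 (1.37, adjusted p = 0.011). Of 22 genes in a list drawn around mTOR and Larp1, which also holds Myc family and rps6ka kinase genes, 2 were lower and 5 higher (median 0.75). The 5 higher were larp1b (2.10), tsc1a (1.67), tsc1b (1.42), larp1 (1.34) and rps6ka3a (0.95), and mych was not among them. All 5 have many counts per TPM, from 1.61 (larp1) to 2.76 (tsc1b) relative to the median gene. In the bins that hold them the median of other genes was itself 0.64 to 0.85 in control 3. What these 5 owe to that gradient was not tested. In the same list eif4ebp1, a repressor of cap-dependent translation that mTOR switches off, was lower in control 3 (731, 593 and 259 CPM in the controls, 308 and 271 in the pools, -1.35, adjusted p = 0.013). Its relative eif4ebp3l was lower too (674, 540.8 and 178 CPM in the controls, 278 and 272 in the pools, -1.77, adjusted p = 0.007). The relative eif4ebp2 had the opposite sign, with 146, 146 and 267 CPM in the controls and 374 and 279 in the pools (0.87, adjusted p = 0.054). The relative eif4ebp3 was below 0 but did not pass either (-0.63, edgeR adjusted p = 0.234). Relative to the median gene, counts per TPM were 1.40 for eif4ebp2. They were 0.66, 0.62 and 0.51 for eif4ebp1, eif4ebp3l and eif4ebp3. What the opposite sign of eif4ebp2 owes to that gradient was not tested. The Myc family gene mych had 173, 389 and 522 CPM in the controls and 433 and 541.4 in the pools. Of 15 genes of ribosome rescue and quality control, 2 were lower and 2 higher (median 0.25), and vcp, an unfolding ATPase, had 226, 135 and 280 CPM in the controls and 291 and 318 in the pools. For both pools against the controls 0 genes of any of these lists passed the threshold in edgeR.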

How the data were processed

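RNA was sequenced from 5 libraries of whole zebrafish embryos. The deposited tables hold, per library, whole-number gene counts made by the authors, with unmapped, multimapping, ambiguous and no-feature reads as separate entries, which were left out here. A second deposited table was read as TPM from its values and totals, since no label or header records how the authors made it. Per the submitters' processing notes, bcl2fastq 2.20 was used and the genome was danRer11. The labels do not name the aligner or the counting program, and counts are not split by strand in any stated way.

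From these, CPM with TMM factors were made with edgeR 4.0.16 in R 4.3.3, and limma was 3.58.1. edgeR's quasi-likelihood F test was run on the 16445 of 32520 genes that its expression filter (minimum count 10) kept, with Benjamini-Hochberg adjustment over all of them and a threshold of 0.05. Each pool was tested in a fit with 3 groups (2 residual degrees of freedom), both pools together in a fit with 2 groups (3), and the volume as a term beside the 2 groups (2), where it equals control 3 against controls 1 and 2. The SE is the fold change over the root of F. Alternatives were DESeq2 1.42.0, other scaling, no filter, limma on log2 of TPM + 1 or + 0.1, a volume term, leaving out each control and, added after seeing the data, each pool as a group of its own in the volume fit (1 residual degree of freedom). The symbol rule and all gene lists were chosen with earlier results of these data known, the p53 list and the counts per TPM measure after the values were seen. Members named are the 8 highest and 8 lowest by TPM, the copies, the 5 lowest and 3 highest of each comparison, the genes of the anaemia list, and those least like the rest. Of each other list, the 2 genes of highest mean CPM over the 5 libraries are named. The genes phlda3, mdm2, rrm2b, eif4ebp2, eif4ebp3, eif4ebp3l, larp1b, tsc1a, tsc1b, larp1 and rps6ka3a were added after their values were seen. Some members that this rule covers are not reported here, and 2 of the figures leave them out; all counts and medians include them.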

Additional observations from a re-analysis of the deposited data

How the results depend on the processing

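No paired analysis was possible because the pools are single libraries that carry no replicate numbers. In the comparison of control 3 with controls 1 and 2 the members' median of -1.49 became -1.16 with library size scaling alone, which moved the all-gene median from -0.12 to 0.21. With limma it was -0.66 on log2(TPM + 1) and -0.66 on log2(TPM + 0.1), where 13 members passed in each in place of 55. The all-gene median was 0.50 on the first scale and 0.62 on the second. By edgeR the members' median was -1.13 in the 39 members with more counts per TPM. With each pool a group of its own, a fit chosen after seeing the data, it stayed -1.49, and 41 members passed in place of 55. With the volume term the medians for the pool of 10, the pool of 25 and both pools were 0.065, -0.061 and -0.036. Leaving out 1 control gave 0 to 71 members past the threshold for both pools, 71 being without control 3. A few members near 0 changed sign, and the cause was not tested. In control 3, rpl3 was at 0.00617 in DESeq2, 0.33 by library size, 0.83 on TPM with either pseudocount, and -0.062 to 0.041 with control 1 or 2 left out. In the same comparison rpsa was at 0.21 by library size and 0.83 and 0.84 on TPM, and rpl37 (ENSDARG00000076360) at 0.10, 0.36 and 0.36. For both pools, rpl3 was at 0.026 by library size and 0.31 and 0.31 on TPM, and rpl4 at 0.24 and 0.24 on TPM and 0.22 with the volume term. For the pool of 10, rpl3 was at 0.23 and 0.23 on TPM, rps28 at 0.093 with the volume term, and rplp0 at 0.013 by library size, 0.28 and 0.28 on TPM and 0.27 with the volume term. For the pool of 25, rpl3 was at 0.12 by library size and 0.38 and 0.38 on TPM. There rpl4 was at 0.066, 0.32 and 0.33, at 0.29 with the volume term, and between -0.40 and 0.016 with 1 control left out. Scaling by genes that are not members, and leaving out rpl37 (ENSDARG00000076360) and rpl9, which has very few counts for its TPM, moved no median by more than 0.02. With each pool a single library, a fold change in the pools has an SE of 0.58 to 1.11, so that only large differences are detectable.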
